A study of Homo sapiens with 24 samples.

Results

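The 10 genes described here encode enzymes that add methyl groups to lysine 36 of histone H3 (H3K36) or remove them. They are the methyltransferases SETD2, NSD1, NSD2, NSD3 and ASH1L and the demethylases KDM2A, KDM2B, KDM4A, KDM4B and KDM4C. They were chosen by name, and each of the 10 was found among the 58884 genes of both deposited expression tables. All 10 were expressed above the filter on low values in both tables.

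Methylation of H3K36 is laid down in steps. NSD1, NSD2, NSD3 and ASH1L place the mono- and dimethyl marks, and SETD2, which travels with elongating RNA polymerase II, places the trimethyl mark over the bodies of transcribed genes. KDM2A and KDM2B remove the lower methylation states and bind unmethylated CpG islands, and the KDM4 enzymes remove the di- and trimethyl marks from both lysine 9 and lysine 36. The question put to the data was whether transcripts of the other enzymes of the mark differed when SETD2 was lost, put back whole, or put back as its C-terminal segment.

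RNA of HEK293T cells, a human embryonic kidney line that carries the SV40 large T antigen, was measured in 10 libraries. A first table holds 2 libraries of untreated wild-type (WT) cells and 2 of untreated SETD2 knockout (KO) cells, in which both alleles of the gene were disrupted. A second table, made separately, holds 2 libraries of untreated KO cells, 2 of KO cells given full-length SETD2 (SETD2 FL) and 2 of KO cells given residues 1404 to 2564 (SETD2 C, N3 in the sample labels). Both constructs were driven by the CMV promoter and introduced by transfection. Since the labels call the KO libraries untreated, transfection and expression of the construct cannot be told apart in comparisons with KO. The labels do not say whether replicates came from separate cultures, so p-values measure only the spread between these libraries, which may be technical. No library was left out of the values below.

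Levels are given as TPM, a relative abundance that corrects for transcript length and sums to an equal total in each library, so levels of different genes can be set side by side but the sequencing depth is unknown. Differences were tested between libraries with limma on log2(scaled TPM + 0.5), after scaling by median ratios with factors of 0.879 to 1.06 in the first table and 0.956 to 1.07 in the second. Calls were made at p of at most 0.05 after Benjamini-Hochberg adjustment over all genes tested, and a fold change of at least 2 was asked in addition where stated. Fold changes are on the log2(scaled TPM + 0.5) scale, which understates changes of low genes. Of markers of the line, VIM had 444 to 926 TPM and NEFM 111 to 341 TPM across the 10 libraries. KRT18 had 59.7 to 97.2 TPM and KRT8 27.1 to 98.1 TPM, while PAX2 was low at 0.99 to 2.21 TPM. PTPRC of leukocytes and CDH5 of endothelium had at most 0.02 and 0.03 TPM. ALB of hepatocytes had at most 0.38 TPM, but COL1A1 of fibroblasts was present at 6.43 to 12.1 TPM.

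SETD2 C lacks the N-terminal stretch of the protein. The coding sequence around its first residue is shown because it marks the boundary between the constructs. On GRCh38 it lies at chr3:47120397-47120456 on the minus strand, within exon 3 of the 21 exons of the reference transcript, and capitals mark the codons kept in SETD2 C.
SETD2, first codon of SETD2 C: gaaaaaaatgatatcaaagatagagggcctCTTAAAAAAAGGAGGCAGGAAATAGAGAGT
The codon of residue 1404, CTT, begins at base 47120426. Exon 3 is 4367 bases long, and the 1161 residues kept are 45.3% of the coding sequence. A table of gene totals does not separate reads of a construct from those of the endogenous transcript.

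The targeted transcript was read first as a check on the labels, and positions of genes are on GRCh38 from GENCODE 44. In the first table SETD2 (ENSG00000181555, chromosome 3 from 47016428 to 47164113, minus strand) had 12.6 and 14.8 TPM in the libraries labelled WT and 16.2 and 16.3 TPM in those labelled KO. It was not lower in KO, with a log2 fold change of 0.11 and a 95% interval of -0.075 to 0.30, so the knockout is not visible as a loss of this transcript. A disrupted allele can still be transcribed, so a gene total does not test the knockout, and only the labels give the direction between KO and WT. In the other table it had 11.99 and 12.15 TPM in KO, 439 and 422 TPM in SETD2 FL and 1329 and 1264 TPM in SETD2 C. Set against the summed TPM of NSD1, NSD2, NSD3 and ASH1L in the same library, SETD2 stood at a ratio of 0.133 and 0.142 in KO, 5.55 and 4.96 in SETD2 FL, and 12.6 and 10.6 in SETD2 C. The TPM of the construct libraries is computed over the lengths of annotated transcripts and not of the constructs, so the ratio between SETD2 C and SETD2 FL is no ratio of molecules. Among expressed protein-coding genes, 57.3% lay below SETD2 in KO of the second table, 98.5% in SETD2 FL and 99.3% in SETD2 C.

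**Figure D1:**
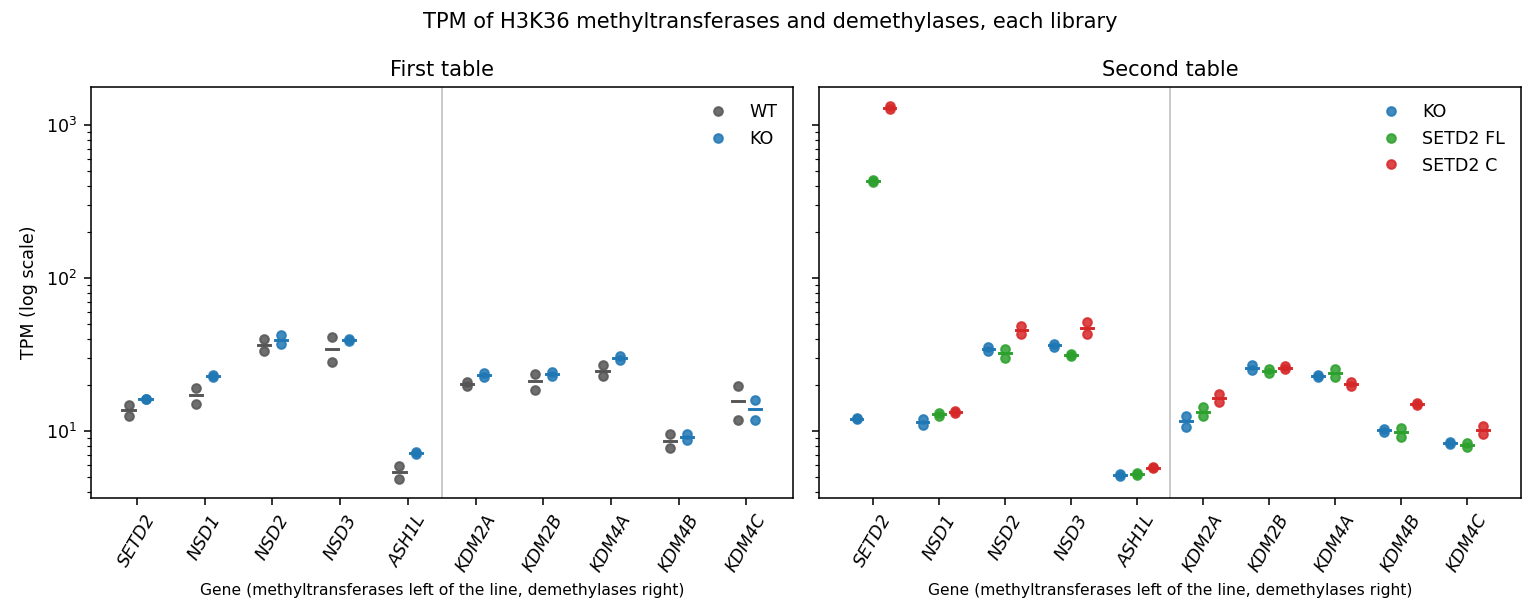
TPM of the 10 genes in each library on a log axis, with the first table on the left and the second on the right. Points are libraries and bars are means of 2 libraries. SETD2 rose from 11.99 and 12.15 TPM in KO to at least 1264 TPM in SETD2 C, while the 9 other genes stayed between 4.89 and 51.9 TPM.

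Apart from SETD2, the members differed in level among themselves more than between conditions. In KO of the second table, NSD3 and NSD2 were the most abundant, at a mean of 36.5 and 34.4 TPM, followed by KDM2B at 26.0 and KDM4A at 22.9 TPM. SETD2, KDM2A and NSD1 followed at 12.1, 11.7 and 11.5 TPM, and neighbours among these overlapped between libraries. KDM4B at 10.1, KDM4C at 8.44 and ASH1L at 5.18 TPM closed the order. In WT of the first table NSD2 and NSD3 again led, at 36.6 and 34.6 TPM with overlapping libraries, and ASH1L again stood last at 5.43 TPM. With SETD2 C the libraries of NSD3 and NSD2 overlapped, at a mean of 47.5 and 45.7 TPM, and KDM4B moved ahead of NSD1, at 15.1 against 13.4 TPM.

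The KO libraries of both tables carry the same genotype but were processed in separate tables, so their levels are given without a test. NSD1 had 22.6 and 23.2 TPM in KO of the first table and 12.02 and 11.02 TPM in KO of the second. KDM2A had 22.5 and 24.1 TPM in the first and 12.6 and 10.8 TPM in the second. The ratio of KDM2A to KDM2B within a library, which no scaling between libraries can alter, was 0.974 and 0.986 in KO of the first table and 0.503 and 0.399 in KO of the second. These differences between tables were wider than any difference between conditions within a table for these genes.

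The libraries labelled KO held no called difference from WT in the other enzymes. Of the 9 members other than SETD2, 0 were called in KO against WT in either direction, and 2, NSD1 and ASH1L, had an unadjusted p under 0.05, which 24.9% of all genes tested had. Of the 14746 genes tested, 1.32% were called higher and 3.17% lower, and 1.36% passed with a fold change of at least 2. The median log2 fold change of the 9 members was 0.06, against -0.0058 over all genes tested. Without scaling, the median of all genes was 0.11, and 2.78% were called higher and 2.43% lower. A count of 0 does not show equal levels, and the intervals below give the differences it allows.

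NSD1 (ENSG00000165671, chromosome 5 from 177131830 to 177300213, plus strand), mutated in Sotos syndrome, had 15.1 and 19.3 TPM in WT and 22.6 and 23.2 TPM in KO. The log2 fold change of NSD1 was 0.28 ± 0.08 (SE), and the adjusted p from limma was 0.09998. ASH1L (ENSG00000116539, chromosome 1 from 155335268 to 155563162, minus strand) acts through a complex with MORF4L1. It had 4.89 and 5.96 TPM in WT and 7.36 and 7.10 TPM in KO. Its log2 fold change was 0.27 ± 0.10 (SE) with an adjusted p from limma of 0.152.

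NSD2 (ENSG00000109685, chromosome 4 from 1871393 to 1982207, plus strand), named for Wolf-Hirschhorn syndrome, had 33.4 and 39.8 TPM in WT and 36.9 and 42.4 TPM in KO. NSD3 (ENSG00000147548, chromosome 8 from 38269704 to 38382272, minus strand) had 28.2 and 41.0 TPM in WT and 38.7 and 40.0 TPM in KO. For both genes the groups overlapped and the 95% interval of the log2 fold change, -0.23 to 0.21 for NSD2 and -0.18 to 0.34 for NSD3, included 0.

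Of the demethylases, KDM4C (ENSG00000107077, chromosome 9 from 6720863 to 7175648, plus strand) had the widest spread, at 11.8 and 19.7 TPM in WT and 11.9 and 16.1 TPM in KO. Its interval, -0.73 to 0.21 on the log2 scale, leaves a fall to 0.602-fold or a rise to 1.15-fold within reach. KDM4A (ENSG00000066135, chromosome 1 from 43650149 to 43705518, plus strand) had 22.9 and 26.9 TPM in WT and 31.1 and 29.2 TPM in KO, with a log2 fold change of 0.15 and an interval of -0.029 to 0.32. KDM2A (ENSG00000173120, chromosome 11 from 67119263 to 67258082, plus strand), at 19.8 and 21.0 TPM in WT and 22.5 and 24.1 TPM in KO, had a log2 fold change of 0.06 after scaling. KDM2B (ENSG00000089094, chromosome 12 from 121429096 to 121581023, minus strand) had 18.7 and 23.7 TPM in WT and 23.1 and 24.5 TPM in KO. KDM4B (ENSG00000127663, chromosome 19 from 4969113 to 5153598, plus strand) had 7.74 and 9.60 TPM in WT and 9.63 and 8.74 TPM in KO. The scaled values of these last 3 genes overlapped between WT and KO.

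With full-length SETD2 there was again no called difference in the other enzymes. Its transcript stood at 33.9 times the KO level, which is no measure of its protein. By western blot, the paper reports SETD2 FL protein about level with endogenous SETD2, and SETD2 C protein markedly above SETD2 FL. Of the 9 members, 0 were called in SETD2 FL against KO, and 1, NSD3, had an unadjusted p under 0.05, against 15.9% of all genes. Among the 15933 genes tested, 0.176% were called higher, 0.0314% lower, and 0.0816% with a fold change of at least 2. The median log2 fold change of the 9 members was -0.06, against 0.0056 over all genes.

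NSD3 had 37.3 and 35.7 TPM in KO and 31.1 and 32.2 TPM in SETD2 FL. The log2 fold change of NSD3 was -0.22 ± 0.09 (SE), with an adjusted p from limma of 0.268. The other 8 log2 fold changes ran from -0.11 for NSD2 to 0.18 for KDM2A, and each 95% interval included 0. The widest of these intervals, that of KDM2A, ran from -0.063 to 0.41.

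With the C-terminal segment 4 of the 9 members were called against KO, beside 36.2% of all genes. In SETD2 C against KO, KDM4B, KDM2A and NSD2 were called higher and KDM4A was called lower, and 5 members passed neither way. Over all 15933 genes, 21.1% were called higher and 15.1% lower, so calls in both directions were common, and 4.06% passed with a fold change of at least 2, which none of the 9 members reached. The median log2 fold change of the 9 members was 0.12, against 0.046 over all genes. Under quantile normalization 15.4% were called higher and 17.5% lower. Without scaling the median of all genes was 0.18 and 34.6% were called higher and 7.01% lower, and the 4 calls among the members were then NSD2, NSD3, KDM2A and KDM4B, all higher. Of 5 markers of the line, KRT8, NEFM and KRT18 were called higher too, KRT8 by a log2 fold change of 1.60 and NEFM by 1.20. Of 4 markers of other cell types, COL1A1 was also called higher with SETD2 C, while PTPRC, CDH5 and ALB were near 0 and not tested. The summed level of these 4 markers was 7.09 and 7.17 TPM in KO, 7.18 and 9.08 TPM in SETD2 FL and 12.5 and 10.9 TPM in SETD2 C. COL1A1 made up most of this sum, whose part in these results was not tested.

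KDM4B, an oxygen-dependent demethylase of lysine 9 and lysine 36, had 9.96 and 10.3 TPM in KO, 9.12 and 10.6 TPM in SETD2 FL, and 15.3 and 14.9 TPM in SETD2 C. Both SETD2 C libraries lay above the 4 others. Scaled, it was 1.33-fold higher than in KO (log2 fold change 0.41 ± 0.08 SE, limma adjusted p = 0.0074). KDM4B was called in each of the 14 alternative analyses, and its exons overlap those of no other annotated gene.

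KDM4A, a relative of KDM4B expressed at a higher level, had 23.3 and 22.5 TPM in KO, 22.6 and 25.5 TPM in SETD2 FL, and 20.9 and 19.9 TPM in SETD2 C. Both SETD2 C libraries lay below the 4 others. Scaled, it was 0.807 times the KO level (log2 fold change -0.31 ± 0.07 SE, limma adjusted p = 0.0115). Without scaling the log2 fold change was -0.16 and the call was lost (limma adjusted p = 0.131). It was also lost without KO replicate 2 (-0.29, limma adjusted p = 0.0565) and without SETD2 C replicate 2 (-0.27, limma adjusted p = 0.0704). KDM4A shares 40.2% of its exonic bases with a readthrough gene, listed at 0 to 0.05 TPM in the second table. It shares 9.12% with the antisense transcript KDM4A-AS1, listed at 3.65 to 6.54 TPM. Of other members, NSD3 shares 3.57% with DDHD2 on the opposite strand, listed at 25.41 to 41.92 TPM in that table. ASH1L shares 1.63% with ASH1L-AS1, also opposite, at 11.26 to 22.02 TPM. Strandedness is not given in the sources used here.

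KDM2A, a demethylase that binds CpG islands through a zinc finger, had 12.6 and 10.8 TPM in KO, 12.5 and 14.4 TPM in SETD2 FL, and 17.5 and 15.5 TPM in SETD2 C. Its log2 fold change against KO was 0.34 ± 0.10 (SE), at a limma adjusted p of 0.0361. NSD2 had 35.4 and 33.4 TPM in KO, 30.2 and 34.5 TPM in SETD2 FL, and 43.0 and 48.3 TPM in SETD2 C. Its log2 fold change against KO was 0.25 ± 0.08 (SE), at a limma adjusted p of 0.0352. These smaller calls depended on the processing and on particular libraries, and KDM2A passed in 8 and NSD2 in 9 of the 14 alternatives. Leaving out KO replicate 2, or SETD2 C replicate 2, left KDM2A and KDM4B called, leaving out KO replicate 4 left KDM4A and KDM4B, and leaving out SETD2 C replicate 1 left NSD2, NSD3, KDM4A and KDM4B, so the count ranged from 2 to 4. Under these omissions the log2 fold change of KDM2A lay between 0.23 (without KO replicate 4) and 0.44, and that of NSD2 between 0.18 (without SETD2 C replicate 2) and 0.33.

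Of the members not called, NSD3 had 37.3 and 35.7 TPM in KO and 43.0 and 51.9 TPM in SETD2 C, with a log2 fold change of 0.22 and an adjusted p of 0.0770 from limma. It was called without SETD2 C replicate 1, at a log2 fold change of 0.35. KDM4C had 8.55 and 8.32 TPM in KO and 9.56 and 10.9 TPM in SETD2 C, with an interval of -0.083 to 0.32. KDM2B, which recruits the Polycomb complex PRC1.1, had 25.1 and 26.9 TPM in KO and 26.6 and 25.5 TPM in SETD2 C, with an interval of -0.30 to 0.015. NSD1 had 12.02 and 11.02 TPM in KO and 13.5 and 13.3 TPM in SETD2 C. After scaling these libraries overlapped, with a log2 fold change of 0.065 and an interval of -0.107 to 0.237. ASH1L, at 5.10 and 5.26 TPM in KO and 5.74 and 5.84 TPM in SETD2 C, had a log2 fold change of 0.01 and an interval of -0.20 to 0.22.

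**Figure D2:**
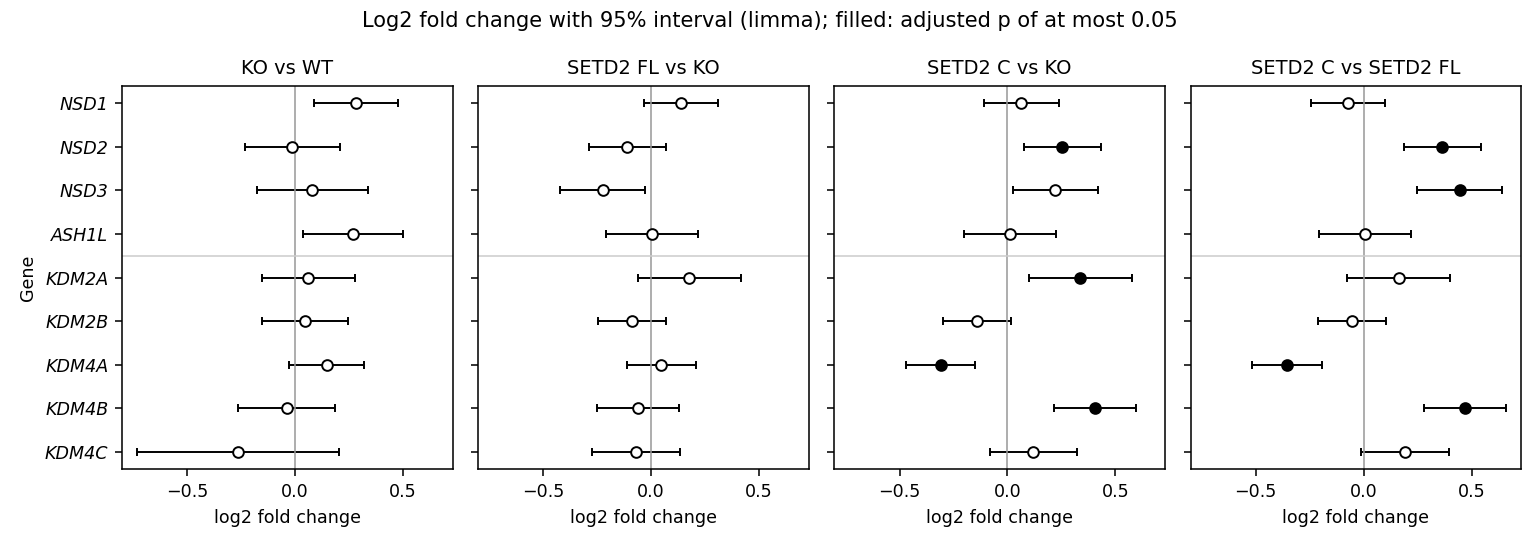
Log2 fold change (horizontal axis) of the 9 genes other than SETD2 in each of the 4 comparisons, with 95% intervals from limma. Filled points have an adjusted p of at most 0.05. KO vs WT and SETD2 FL vs KO hold 0 filled points, and SETD2 C against KO and against SETD2 FL hold 4 each.

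SETD2 C and SETD2 FL were both transfected into KO cells, and this comparison holds that step in common. SETD2 itself was higher with SETD2 C, by a log2 fold change of 1.46 (limma adjusted p = 7.1e-06), which is no ratio of molecules. The paper reports no significant difference in mRNA between the constructs in its RNA-seq, and the reason for the unlike readings was not tested. Relative to SETD2 FL, KDM4B, NSD3 and NSD2 were called higher with SETD2 C and KDM4A was called lower. Over all genes 21.4% were called higher, 16.8% lower, and 3.78% with a fold change of at least 2, which again none of the 9 members reached. The median log2 fold change of the 9 members was 0.16, against 0.042 over all genes, or 0.16 over all genes without scaling. Without scaling 32.6% of all genes were called higher and 9.46% lower, and under quantile normalization 16.9% higher and 19.2% lower.

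KDM4B was 1.39-fold higher than with SETD2 FL (log2 fold change 0.47 ± 0.08 SE, limma adjusted p = 0.0037). NSD3, at 31.1 and 32.2 TPM in SETD2 FL against 43.0 and 51.9 TPM in SETD2 C, was 1.36-fold higher (log2 fold change 0.45 ± 0.09 SE, limma adjusted p = 0.0055). NSD2 was 1.29-fold higher (log2 fold change 0.36 ± 0.08 SE, limma adjusted p = 0.0083). KDM4A stood at 0.782 times the SETD2 FL level (log2 fold change -0.36 ± 0.07 SE, limma adjusted p = 0.0059). KDM4A, KDM4B and NSD3 were called in each of the 14 alternatives, and NSD2 in 13, the exception being the fit without SETD2 C replicate 2 (log2 fold change 0.28, limma adjusted p = 0.0573). KDM2A, higher than in KO, had an interval of -0.076 to 0.40 against SETD2 FL. SETD2 C is shared by both comparisons, which are therefore not independent of each other.

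The makeup of the KDM4 enzymes was also read within each library, where scaling between libraries has no part. KDM4A made up 55.8% and 54.7% of the summed TPM of KDM4A, KDM4B and KDM4C in KO, 57.1% and 57.3% in SETD2 FL, and 45.7% and 43.6% in SETD2 C. The share of KDM4B was 23.8% and 25.1% in KO, 23.0% and 23.8% in SETD2 FL, and 33.4% and 32.5% in SETD2 C. The ratio of KDM4A to KDM4B was 2.26 ± 0.11 (SD, n = 2) in KO, 2.45 ± 0.050 (SD, n = 2) in SETD2 FL and 1.35 ± 0.021 (SD, n = 2) in SETD2 C, without overlap between SETD2 C and either other group. The unscaled sum of the 3 enzymes was 41.8 and 41.1 TPM in KO and 45.7 TPM in each SETD2 C library. Unlike the shares, this sum depends on scaling between libraries. Scaling divides it by 0.966 and 0.957 in KO and by 1.06 and 1.07 in SETD2 C. With 2 libraries against 2, an exact two-sided permutation test cannot give a p below 0.333, so these ratios are given by their spread. A changed ratio shows unequal change and not which gene moved.

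The ratio of KDM2A to KDM2B was 0.503 and 0.399 in KO, 0.525 and 0.559 in SETD2 FL, and 0.659 and 0.606 in SETD2 C, each group above the one before. In the first table the same ratio was 1.06 and 0.887 in WT and 0.974 and 0.986 in KO. The summed TPM of NSD1, NSD2, NSD3 and ASH1L stood at 1.13 and 1.08 times that of the 5 demethylases in KO, 1.04 and 1.01 times in SETD2 FL, and 1.17 and 1.38 times in SETD2 C.

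**Figure D3:**
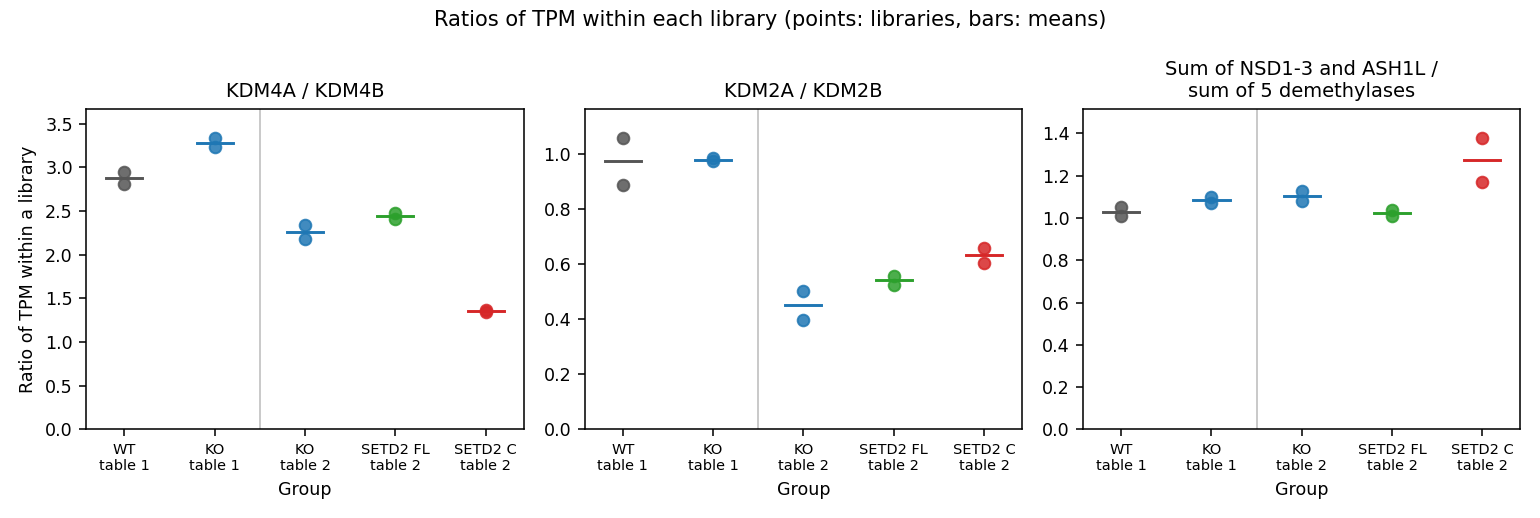
Ratios of TPM within each library (vertical axes, starting at 0) for KDM4A over KDM4B, KDM2A over KDM2B, and the summed NSD1, NSD2, NSD3 and ASH1L over the 5 demethylases. Points are libraries, bars are means of 2, and the line separates the tables. KDM4A over KDM4B was 1.34 and 1.37 with SETD2 C and higher in every other library.

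The regions upstream of the KDM4 genes are shown because KDM4A and KDM4B were called in opposite directions in SETD2 C. KDM4B is known as a gene induced in low oxygen, and hypoxia-inducible factors bind the core letters ACGTG or GCGTG. Each line gives the 250 bases before the RefSeq start (GRCh38.p14), on the strand of the gene, 5′ to 3′, with matches to ACGTG or GCGTG on either strand in capitals.
KDM4A, chr1:43649899-43650148, plus strand: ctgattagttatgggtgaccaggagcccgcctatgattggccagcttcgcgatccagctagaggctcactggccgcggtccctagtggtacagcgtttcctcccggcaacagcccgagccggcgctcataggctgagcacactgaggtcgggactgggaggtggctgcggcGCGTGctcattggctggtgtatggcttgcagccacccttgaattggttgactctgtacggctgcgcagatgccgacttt
KDM4B, chr19:4968863-4969112, plus strand: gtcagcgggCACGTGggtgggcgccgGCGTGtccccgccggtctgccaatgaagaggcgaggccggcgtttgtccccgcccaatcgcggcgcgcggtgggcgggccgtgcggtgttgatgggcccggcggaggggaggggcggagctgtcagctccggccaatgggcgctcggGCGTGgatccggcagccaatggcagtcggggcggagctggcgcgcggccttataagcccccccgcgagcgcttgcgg
KDM4C, chr9:6757723-6757972, plus strand: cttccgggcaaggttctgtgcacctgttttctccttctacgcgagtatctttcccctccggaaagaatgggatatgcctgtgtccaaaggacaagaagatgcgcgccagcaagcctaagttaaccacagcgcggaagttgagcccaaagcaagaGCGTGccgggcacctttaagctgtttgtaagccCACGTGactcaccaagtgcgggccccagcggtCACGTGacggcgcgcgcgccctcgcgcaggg
KDM4A held 1 match, KDM4B 4 and KDM4C 5. The palindrome CACGTG counts as a match on each strand, so 1 pair in KDM4B and 2 pairs in KDM4C overlap. Of 35116 RefSeq promoters cut to the same 250 bases, 43.2% held at least 1 match and 3.2% at least 4. Sequences were found for 9 of the 10 members, and 8 of the 9 held at least 1 match, with 3 in KDM2A, 2 in NSD1, 1 each in SETD2, NSD2 and ASH1L, and 0 in KDM2B. The GC content of these 9 windows ran from 54.0% in KDM2B to 86.0% in NSD2. Both ACGTG and GCGTG hold the letters CG, and the 35116 promoters were not matched to the members for GC content. KDM4C was called in none of the 4 comparisons, with 1 exception among the alternatives (SETD2 C vs SETD2 FL without scaling). A match of letters is no record of binding, and a part of low oxygen or of these factors in the calls was not tested.

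Other enzymes of histone lysine methylation were listed alongside. Of 5 tested enzymes with a described activity on H3K36, SETD5 was called higher with SETD2 C against KO, from 51.1 and 49.9 TPM to 72.8 and 72.4 TPM (log2 fold change 0.37, limma adjusted p = 0.0017), and 4 passed neither way. Of all genes, 21.1% were called higher and 15.1% lower in that comparison. PRDM9, KDM4E and RIOX1 did not pass the filter on low values. In KO against WT the called gene of this list was SETMAR, at 7.32 and 8.08 TPM in WT and 5.99 and 5.79 TPM in KO (log2 fold change -0.48, limma adjusted p = 0.0473). There, 1.32% of all genes were called higher and 3.17% lower. No gene of this list was called in SETD2 FL against KO, where 0.176% of all genes were called higher and 0.0314% lower.

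Of 19 methyltransferases of other histone lysines, 2 were called higher and 6 lower with SETD2 C against KO, beside 21.1% and 15.1% of all genes, with a median log2 fold change of -0.17. EZH1, a Polycomb methyltransferase of lysine 27, rose by a log2 fold change of 0.47, and KMT5B, which methylates lysine 20 of histone H4, by 0.46. KMT2D, a lysine 4 methyltransferase of enhancers, had the largest fall of the list, from 16.9 and 16.5 TPM to 11.5 and 12.8 TPM (log2 fold change -0.58, limma adjusted p = 0.0012). SUV39H1 and SETD1A also fell, with log2 fold changes of -0.41 and -0.39.

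Of 13 demethylases of other histone lysines, 3 were called higher and 2 lower, shares near the 21.1% and 15.1% of all genes. KDM3A, a lysine 9 demethylase also known to respond to low oxygen, moved most among the enzymes listed other than SETD2. It had 22.3 and 23.0 TPM in KO, 20.7 and 22.8 TPM in SETD2 FL, and 49.5 and 50.5 TPM in SETD2 C, a 1.97-fold rise over KO (log2 fold change 0.98 ± 0.06 SE, limma adjusted p = 5.9e-05) and a 2.08-fold rise over SETD2 FL. JMJD1C and KDM5B rose by log2 fold changes of 0.52 and 0.47, while KDM1B and KDM3B fell by 0.22 and 0.20 on the log2 scale. The median of the list was -0.042, against 0.12 for the 9 H3K36 enzymes.

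**Figure D4:**
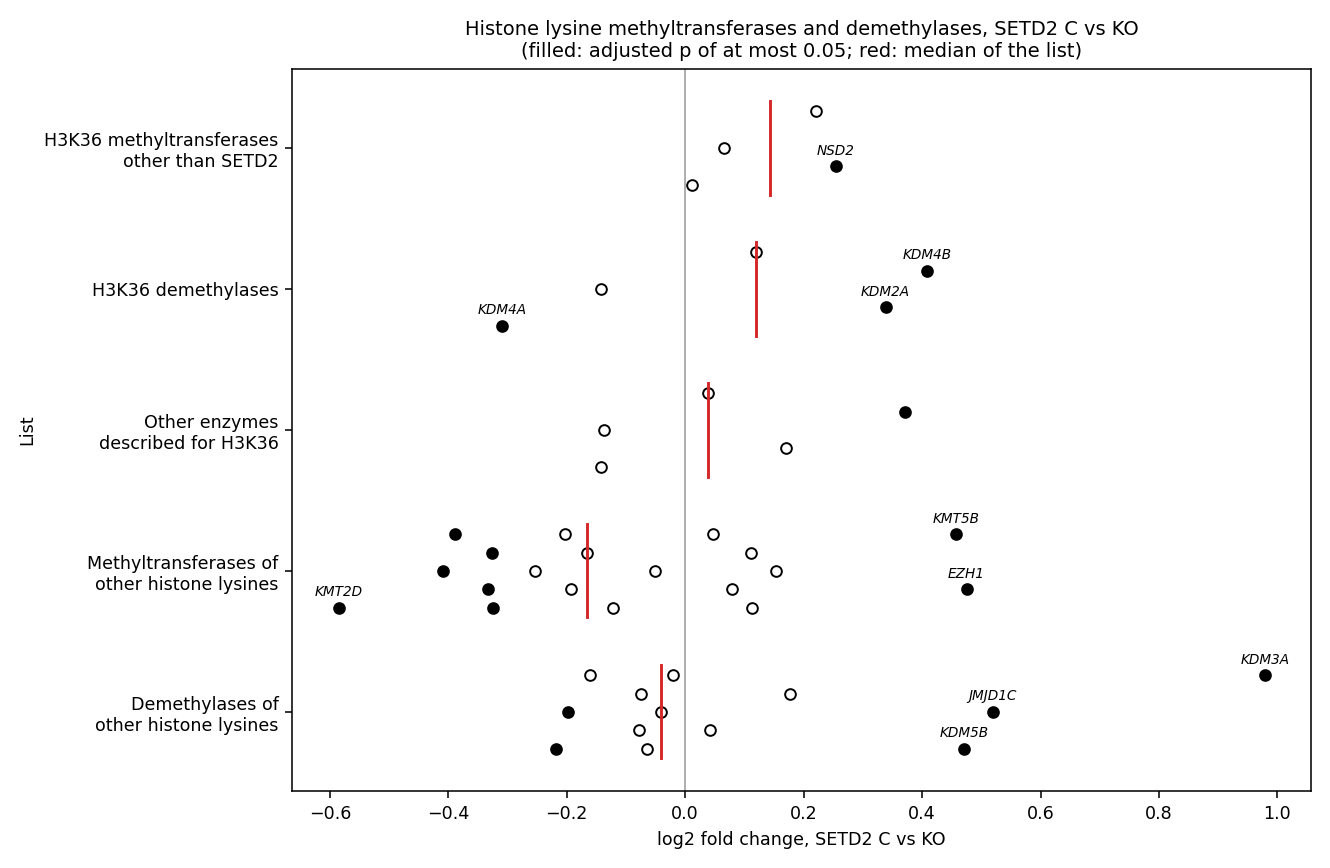
Log2 fold change in SETD2 C vs KO (horizontal axis) of tested genes in 5 lists of histone lysine methyltransferases and demethylases. Points are genes, filled where the adjusted p from limma is at most 0.05, and red lines are medians of the lists. The 9 H3K36 enzymes lie between -0.31 and 0.41, inside the range of the other lists, which runs from -0.58 for KMT2D to 0.98 for KDM3A.

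Partners of the members were followed in the same way. With SETD2 C against KO, 21.1% of all genes were called higher and 15.1% lower. In KO against WT these shares were 1.32% and 3.17%. Of 10 genes of transcription elongation that work with SETD2, POLR2A, the largest subunit of RNA polymerase II, was called higher with SETD2 C against KO (log2 fold change of 0.46), and IWS1, SUPT16H and HNRNPL were called lower, by 0.32, 0.23 and 0.23. In KO against WT, SUPT6H, the histone chaperone that binds the polymerase, was called higher, from 32.1 and 37.4 TPM to 51.2 and 49.0 TPM (log2 fold change 0.40, limma adjusted p = 0.0322). In the same comparison KRT18, a marker of the line, was called higher (log2 fold change 0.41), and the summed TPM of the 4 markers of other cell types was 6.51 and 7.13 in WT and 10.4 and 10.5 in KO, of which COL1A1 made up most, and its part in the KO differences was not tested. Of 8 genes of the KDM2B complex PRC1.1, RYBP rose with SETD2 C from 6.67 and 6.05 TPM to 11.71 and 12.04 TPM (log2 fold change 0.71, limma adjusted p = 0.0011), SKP1 rose by 0.30 and BCOR fell by 0.28 on the log2 scale. Of 5 partners of ASH1L and the NSD enzymes, MORF4L1 rose by 0.18 and MEN1 fell by 0.31 on the log2 scale. Of 6 ubiquitin ligase genes, FBXO22, which targets KDM4 proteins, rose by a log2 fold change of 0.29. None of the genes in these 4 lists was called in SETD2 FL against KO.

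In SETD2 C against SETD2 FL, 1 of the 5 other H3K36 enzymes was called higher, again SETD5. Of the 19 methyltransferases of other lysines 3 were higher and 6 lower, and of the 13 demethylases 4 were higher and 0 lower. Of the 10 elongation genes 1 was higher and 3 lower. Among all genes of this comparison 21.4% were higher and 16.8% lower. In KO against WT, 0 of the 19 methyltransferases and 0 of the 13 demethylases of other lysines were called, and 4 and 3 of them had an unadjusted p under 0.05, against 24.9% of all genes. In SETD2 FL against KO, where 0 were called in each list, an unadjusted p under 0.05 was found for 1 of the 5 other H3K36 enzymes, 2 of the 19 methyltransferases, 1 of the 13 demethylases and 7 of the 10 elongation genes, against 15.9% of all genes.

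The genes most like KDM4B across the 6 libraries of the second table, by Pearson's r of log2 values, were MBLAC2 at 0.997, SPRY1 at 0.997 and PPP1R18 at 0.996. For KDM4A they were ZMIZ1 at 0.998, C19orf12 at 0.997 and ZNF598 at 0.996. With 6 points in 3 groups such values were common, and 1944 of 15933 genes had an r over 0.9 with KDM4B and 1525 with KDM4A.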

How the data were processed

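RNA-seq libraries were made by the authors after ribodepletion and polyA enrichment. Per the labels and the methods of the study, reads were demultiplexed with bcl2fastq 2.18, aligned with STAR 2.6.1c to hg38 with Ensembl gene models, and quantified with RSEM 1.3.0. The authors deposited TPM for 58884 genes in 2 tables, without normalization between libraries. TPM keeps no depth, so no counting error can be given, and the strand setting is not given in the sources used here. The study's own test, edgeR on counts, was not used. The 14 ChIP samples were not analysed here.

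Libraries were grouped by their labels, and 4 comparisons were made within tables. TPM was scaled by the median ratio over genes with at least 1 TPM in every library, and log2(scaled TPM + 0.5) was tested with limma 3.58.1 in R 4.3.3 (eBayes with trend). The 6 libraries of the second table shared a fit. Protein-coding and lncRNA genes (GENCODE 44, GRCh38) with at least 0.5 TPM in at least 2 libraries were tested. The procedure was tested on simulated data. The 10 members were all named. From each list, at most 3 called genes per direction and comparison with the largest change were named, and for the called member with the largest change in each direction, the 3 genes with the highest correlation. A marker gene of the original list is not reported here. The members and lists were chosen with earlier results of these data known. Alternatives were other pseudocounts, filters, scalings, variance models and gene types, fits of the compared groups alone, a replicate block, and each library left out in turn. Promoters came from RefSeq (GRCh38.p14).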

Additional observations from a re-analysis of the deposited data

How the results depend on the processing

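In KO vs WT and in SETD2 FL vs KO, 0 of the 9 members were called under each of the 14 alternatives. In SETD2 C vs KO, 4 were called, against 2 with no filter beyond a TPM above 0, 2 without a trend in eBayes, and 2 to 4 when a library was left out. In SETD2 C vs SETD2 FL the count stayed between 3 and 5. Against KO, KDM4B passed in 14 of 14 alternatives, KDM4A in 11, NSD2 in 9, KDM2A in 8 and NSD3 in 3. Over single members and alternatives, calls were lost 14 times and gained 3 times against KO, and lost 1 time and gained 1 time against SETD2 FL. The causes were not tested.

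Directions changed only for log2 fold changes that were not called. Without scaling, values turned to 0.116 for NSD2 and 0.0848 for KDM4B in KO vs WT, to 0.003 for KDM2B in SETD2 C vs KO, and to 0.0512 for NSD1 and 0.0716 for KDM2B in SETD2 C vs SETD2 FL. Under quantile normalization they were 0.00554 for KDM4B in KO vs WT, and -0.00958, -0.117 and -0.108 for ASH1L in SETD2 FL vs KO, SETD2 C vs KO and SETD2 C vs SETD2 FL. Rescaling without mitochondrial genes and SETD2 gave 0.00612 for NSD2 in KO vs WT. With a library left out, KO vs WT ranged from -0.123 to 0.102 for NSD2, -0.0708 to 0.226 for NSD3, -0.0129 to 0.132 for KDM2A, -0.00768 to 0.0992 for KDM2B and -0.0903 to 0.0172 for KDM4B. SETD2 FL vs KO ranged from -0.0392 to 0.0453 for ASH1L, -0.136 to 0.0111 for KDM4B and -0.0092 to 0.102 for KDM4A. ASH1L ranged from -0.0163 to 0.0367 in SETD2 C vs KO and from -0.0355 to 0.0502 in SETD2 C vs SETD2 FL.

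The numbers 1 and 2 occur in both WT and KO of the first table, and deviations of same-numbered libraries had a correlation of 0.147 across genes. The labels do not say that a number marks a pair. With the replicate block, 0 members were called in KO vs WT, as without it. No paired analysis was possible because the groups compared share fewer than 2 numbers in the second table. TPM keeps no depth, and 2 libraries per group limit what small differences can show.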
